A study of Mus musculus with 53 samples.

Results

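The collagen genes described here are all genes whose symbol in the array annotation is Col, a number, the letter a and a number, other than Col17a1. The rule found 43 of the 19938 genes measured on Affymetrix Gene ST arrays and 41 of the 18194 genes measured on an older Affymetrix whole-genome array, whose probes lie near the 3′ ends of transcripts. Col28a1 and Col6a6 were measured on the Gene ST arrays only. The study profiled total RNA from mouse tissues with epithelia on 53 arrays in 18 groups of 3 arrays each, except for bladder at E14.5 with 2 arrays. Whole cornea was taken at E14.5, E15.5, E17.5, P3, P7, P14 and P28 (embryonic and postnatal days), and these 21 arrays shared the Gene ST type with E18.5 trachea and with 3 E18.5 arrays labelled lung. The older arrays held dorsal skin and bladder, each at the 3 embryonic ages of E14.5, E16.5 and E18.5, together with E18.5 stomach, E18.5 esophagus and the proximal part of the E18.5 small intestine. All mice were wild-type animals of the CB6 strain by the labels, except that the E18.5 bladders were Get1 +/-, heterozygous for a grainyhead-like transcription factor gene also called Grhl3, so that age and genotype cannot be told apart in that group. No source used here says whether replicate arrays stand for different animals or litters, so a p-value covers the spread among arrays, which may be technical. Every sample was whole tissue, in which fewer cells of a type and less RNA per cell cannot be told apart.

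Collagens are secreted or membrane-bound proteins built from alpha chains that wind around one another into a stiff helix, and each gene encodes one chain. Fibrillar collagens (types I, II, III, V, XI, XXIV and XXVII) make the banded fibrils of stroma, dermis and cartilage, and fibril-associated collagens such as types IX, XII and XIV sit on the fibril surface. Type IV makes the sheet of the basement membrane under epithelia, type VII the anchoring fibrils that tie that membrane to the stroma, type VI beaded filaments around cells, and type VIII the hexagonal lattice of Descemet's membrane behind the corneal stroma. In the cornea, thin and evenly spaced fibrils of types I and V, laid down by keratocytes, give the stroma its strength and transparency. In hyaline cartilage such as the tracheal rings, types II, IX and XI form the fibril.

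Genes for chains of one molecule often lie together in the genome, and the sequences of 5 genes that recur in the results are shown for that reason and for what their start regions share. RefSeq windows of 300 bases (250 before and 50 after a transcription start, build GRCm38.p6) were matched by symbol for 34 of the 43 genes, 37 windows in all. Col4a1 (chr8:11312777-11313076, minus strand) and Col4a2 (chr8:11312555-11312854, plus strand) start 21 bases apart on opposite strands, each reading first across the start of the other, and the capitals mark the 78 bases that both windows hold on opposite strands. Each sequence is printed 5′ to 3′ on its own strand.
Col4a1: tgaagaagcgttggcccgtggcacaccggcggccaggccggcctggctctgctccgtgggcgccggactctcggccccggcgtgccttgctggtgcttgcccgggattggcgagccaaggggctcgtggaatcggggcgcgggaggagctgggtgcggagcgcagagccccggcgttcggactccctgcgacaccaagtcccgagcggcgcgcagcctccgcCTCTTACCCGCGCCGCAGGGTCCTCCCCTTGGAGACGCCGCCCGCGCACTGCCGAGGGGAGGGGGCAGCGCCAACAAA
Col4a2: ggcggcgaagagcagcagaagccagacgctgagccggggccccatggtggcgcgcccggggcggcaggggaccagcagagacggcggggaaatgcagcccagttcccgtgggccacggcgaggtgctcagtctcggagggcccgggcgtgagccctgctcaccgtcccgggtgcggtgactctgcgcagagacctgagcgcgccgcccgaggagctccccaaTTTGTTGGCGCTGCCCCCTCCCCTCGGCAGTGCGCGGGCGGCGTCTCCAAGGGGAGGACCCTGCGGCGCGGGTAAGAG
The windows of Col1a2 (chr6:4505368-4505667, plus strand) and Col3a1 (chr1:45311288-45311587, plus strand), fibrillar genes that moved together in cornea, are shown next. Their capitals mark 3 promoter motifs found on either strand of the window. The first is the TATAAA motif, which general transcription machinery can bind. The second is the CCAAT motif, known from the binding of nuclear factor Y. The third is the GGGCGG motif, known from the binding of Sp1-like factors.
Col1a2: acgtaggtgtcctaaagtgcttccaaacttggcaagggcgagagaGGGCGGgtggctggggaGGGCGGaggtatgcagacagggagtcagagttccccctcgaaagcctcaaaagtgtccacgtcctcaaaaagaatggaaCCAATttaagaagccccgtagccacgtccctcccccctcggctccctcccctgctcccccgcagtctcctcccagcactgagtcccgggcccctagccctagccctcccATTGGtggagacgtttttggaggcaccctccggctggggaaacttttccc
Col3a1: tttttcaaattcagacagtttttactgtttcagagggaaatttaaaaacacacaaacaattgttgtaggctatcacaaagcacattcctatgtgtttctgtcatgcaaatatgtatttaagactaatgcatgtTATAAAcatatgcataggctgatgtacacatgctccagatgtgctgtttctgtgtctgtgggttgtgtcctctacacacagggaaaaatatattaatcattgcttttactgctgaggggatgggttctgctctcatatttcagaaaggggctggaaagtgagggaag
Col9a1 has 2 starts in RefSeq, at chr1:24177360-24177659 and chr1:24194953-24195252 (both plus strand). As background from the chicken, the upstream start serves cartilage and the downstream one gives the shorter chain of the embryonic cornea. The arrays were summarised per gene here and did not separate them. The same motifs are in capitals.
Col9a1 upstream start: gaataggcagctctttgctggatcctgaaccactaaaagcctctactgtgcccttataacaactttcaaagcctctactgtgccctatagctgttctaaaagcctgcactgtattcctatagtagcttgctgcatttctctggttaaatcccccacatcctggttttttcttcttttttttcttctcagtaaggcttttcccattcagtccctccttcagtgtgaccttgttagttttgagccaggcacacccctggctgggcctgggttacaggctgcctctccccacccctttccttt
Col9a1 downstream start: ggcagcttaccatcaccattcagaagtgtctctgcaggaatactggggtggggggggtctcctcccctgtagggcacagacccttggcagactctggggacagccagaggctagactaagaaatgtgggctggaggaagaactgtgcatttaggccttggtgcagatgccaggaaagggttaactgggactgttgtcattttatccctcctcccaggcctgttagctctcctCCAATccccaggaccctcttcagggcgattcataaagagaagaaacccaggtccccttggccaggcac
TATAAA was present in 13.62% of all 32851 windows and in 4 of the 37 collagen windows, CCAAT in 37.41% and in 12, and GGGCGG in 35.66% and in 23, counting both strands. These matches describe letters in a window and not sites of binding.

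Values below are log2(intensity + 16) after quantile normalization among the arrays of one type. An intensity of 0 gives 4, a difference of 1 is 2-fold, and the change of a dim gene is understated. On Gene ST arrays 4 is not the background level, since the thymus gene Rag1 had intensities of 71 to 173 in the corneas. A gene has one value, from its brightest probe set, and levels are set against each other only within a gene. A gene was called when the limma test over all genes of the table gave a Benjamini-Hochberg adjusted p under 0.05 and the difference was at least 2-fold. Averages are given ± SD with n = 3 unless stated otherwise.

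Several arrays stood apart or went against their labels, and marker genes are given for them as summed intensities. The 3 lung-labelled arrays held thymus markers at sums of 106029 to 112332 over 9 genes, against 728 to 806 in trachea, with the recombinase gene Rag1 at 26722 to 27318. Their lung markers summed to 1846 to 2033, within the range of 1589 to 2371 in the corneas, and they are called lung-labelled throughout. The cornea arrays carried the stromal gene Kera at 4482 to 9841 from E15.5 to P28 but at 84, 284 and 1175 at E14.5. At E14.5 the lens crystallin list summed to 73818 and 77029 on 2 of the 3 arrays and to 7182 on the other. On the older array type, the control probe sets split the arrays into 2 sets. The 9 arrays of E16.5 skin, E18.5 skin and small intestine had an actin 5′ to 3′ signal ratio of 72.9% to 96.3%, and the other 17 arrays a ratio of 7.87% to 28.4%. A principal component that separated these sets held 61.4% of the variance, so comparisons across them cannot be told apart from the array set. Small intestine replicate 4 had intestinal markers at 10798, against 56002 and 58784 on the other arrays of its group, and epidermal markers at 22071, against 59 and 259. It also had stratified esophagus markers at 35561, against 42 and 296, and stomach markers at 13254, against 599 and 979. Lung markers summed to 29349 and 25455 on E18.5 skin replicates 2 and 3, against 196 on replicate 1. On E16.5 skin replicate 7 they summed to 9024, against 332 and 522 on replicates 6 and 8. E14.5 skin replicates 1 and 2 carried intestinal markers at 12195 and 12142, against 52 on replicate 3, and share an identifier in their titles. The SD of their difference over genes was 0.372, against 0.593 and 0.546 for each of them with replicate 3, so they may be 1 sample measured again and n may be 2 in that group. They were entered as 2 arrays. With their mean in their place, the same 11 collagen genes were called for E14.5 skin against bladder, and 22 of 24 for E16.5 against E14.5 skin, without Col13a1 and Col9a2.

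In the cornea, 13 collagen genes rose between E14.5 and E15.5, no step from there to P14 held a called one, and 14 fell between P14 and P28. Over the 7 ages, 16 of the 43 collagen genes were called by the limma F test, against 21.7% of all genes. These were the fibrillar genes Col1a1, Col1a2, Col3a1, Col5a1, Col5a2, Col11a1 and Col24a1, the beaded filament genes Col6a1, Col6a2 and Col6a3, the fibril-associated genes Col9a1, Col12a1 and Col14a1, the short-chain gene Col8a1 of Descemet's membrane, and the basement membrane genes Col4a1 and Col4a2. Of the 16, 13 had their highest mean at E15.5, and their lowest mean was at P28 for 8 genes and at E14.5 for the other 8. Among all genes called over age, 13.4% had their highest mean at E15.5. The 27 genes not called spanned 0.18 to 0.92 on the log2 scale between their lowest and highest ages.

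**Figure D1:**
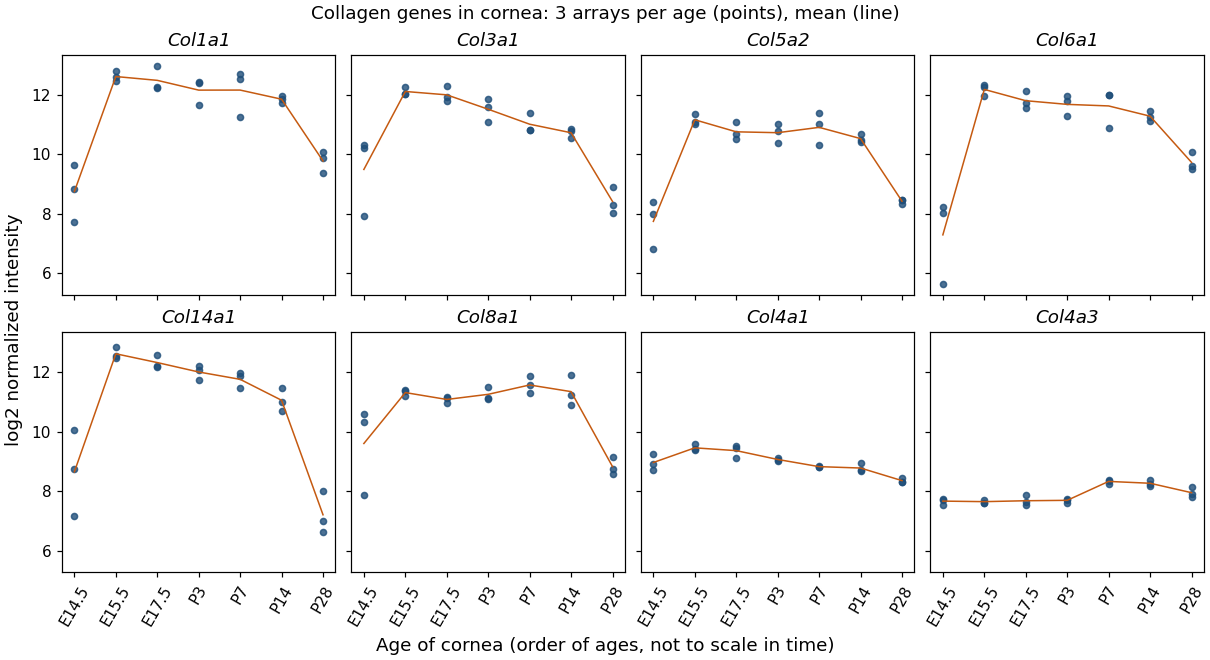
Levels of 8 collagen genes in cornea. Each point is 1 array (log2 normalized intensity, y axis), the line joins the means of the 3 arrays at each age (x axis, in order and not to scale in time). Col6a1 sits between 5.65 and 8.22 at E14.5 and between 11.95 and 12.34 at E15.5, while Col4a3 stays between 7.53 and 8.39 at every age.

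Col1a1 and Col1a2, the chains of type I collagen, showed the course of the group. Col1a1 averaged 8.75 ± 0.96 at E14.5, 12.62 ± 0.16 at E15.5, 12.49 ± 0.42 at E17.5, 12.16 ± 0.43 at P3, 12.16 ± 0.78 at P7, 11.86 ± 0.13 at P14 and 9.78 ± 0.35 at P28. Col1a2 averaged 9.92 ± 1.32 at E14.5, 12.84 ± 0.14 at E15.5, 12.79 ± 0.42 at E17.5, 12.54 ± 0.35 at P3, 12.65 ± 0.64 at P7, 12.30 ± 0.05 at P14 and 10.07 ± 0.25 at P28. From E15.5 to P14 the means of both genes lay within 1 log2 unit, and no step between neighbouring ages in that span was called. Col3a1, the type III chain of looser tissue, declined over the same span without a call at any step, with means of 12.12 ± 0.14 at E15.5, 11.52 ± 0.38 at P3, 11.02 ± 0.34 at P7 and 10.73 ± 0.16 at P14.

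Between E14.5 and E15.5, 13 collagen genes rose and none fell, against 5.3% of all genes that were higher and 2.26% that were lower. They were 7 of the 11 fibrillar genes, 3 of the 6 beaded filament genes, 2 of the 9 fibril-associated genes and 1 of the 3 short-chain genes, with none of the 6 type IV genes. The median difference was 0.21 over the 43 genes and -0.02 over all genes. For every one of the 13 the lowest E15.5 array lay above the highest E14.5 array, and the arrays did not overlap for 23 of the 43 genes in either direction, beside 40.7% of all genes.

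Col6a1 and Col6a3, chains of the type VI beaded filament that links fibrils to cells, had the largest differences of the 43. Col6a1 was at 11.95, 12.27 and 12.34 on the E15.5 arrays and at 8.22, 8.02 and 5.65 on the E14.5 arrays. The difference was 4.89 (SE 0.42), or 29.7-fold, with an adjusted p of 1.39e-08 by limma. Its partner chains Col6a3 and Col6a2 rose by 4.44 (SE 0.40, adjusted p = 2.85e-08) and 3.66 (SE 0.32, adjusted p = 1.54e-08), while Col6a4, Col6a5 and Col6a6 were not called. For these 3 genes the E15.5 arrays lay close together and the E14.5 arrays were widely spread, with replicate 3 the lowest.

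Among the fibrillar genes, Col1a1 was at 12.47, 12.60 and 12.79 at E15.5 and at 9.66, 8.85 and 7.74 at E14.5, a 14.6-fold difference (log2 3.87, SE 0.38, adjusted p = 1.08e-07). Col5a2, a chain of the type V collagen that sets fibril width, was at 11.02, 11.11 and 11.37, against 8.01, 8.41 and 6.82 (log2 3.42, SE 0.29, adjusted p = 9.92e-09). Col24a1, a minor fibrillar chain, rose by 3.00 and Col1a2 by 2.91. Col3a1, Col11a1 and Col5a1 rose by 2.62, 2.53 and 2.20, with adjusted p-values from 7.24e-07 to 7.42e-05. The fibrillar genes that were not called were Col2a1, Col5a3, Col11a2 and Col27a1, with differences from -0.12 to 0.12.

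The fibril-associated Col14a1 and Col12a1, which bind the surface of type I fibrils, rose by 3.97 (SE 0.44, adjusted p = 4.95e-07) and 3.32 (SE 0.50, adjusted p = 2.74e-05). Col14a1 stood at 12.49, 12.54 and 12.84 at E15.5 and at 10.05, 8.74 and 7.18 at E14.5, and Col12a1 at 12.66, 12.61 and 12.69, against 10.71, 10.14 and 7.16. Col8a1, a chain of Descemet's membrane, rose by 1.71 (SE 0.42, adjusted p = 0.00423) and rested on 1 array, being at 10.61 and 10.33 on E14.5 replicates 1 and 2 and at 7.88 on replicate 3. Without E14.5 replicate 3 its difference was 0.85 (adjusted p = 0.0147) and it was no longer called, while the other 12 genes were, at 1.85 to 4.07. The basement membrane genes Col4a1 and Col4a2, the anchoring fibril gene Col7a1, Col16a1 and Col6a6 passed the adjusted p but not the fold limit, with differences of 0.47 to 0.66. With them 18 of the 43 collagen genes passed the adjusted p, beside 26.4% of all genes.

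The cell markers moved in the same step. Over the fibroblast list, 7 of 7 genes were called higher at E15.5, and the list summed to 21913 to 26231 at E15.5 and to 9308, 7257 and 1855 on E14.5 replicates 1, 2 and 3. The corneal stroma list had 4 of 5 genes higher, with sums of 24864 to 28749 at E15.5 and 1914 to 7323 at E14.5. The corneal epithelium list also had 4 of 5 genes higher, summing to 20044 to 28425 at E15.5 and to 4295 to 5168 at E14.5. The lens and erythroid lists went the other way, with 5 of 8 and 2 of 2 genes lower at E15.5, and so did the list for the corneal endothelium, the cells behind Descemet's membrane, with 2 of 4 genes lower (Cdh2 and Car2). Their part in the collagen differences was not tested.

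Genes for collagen processing, degradation and reception were followed beside the chains, from lists drawn up with earlier results of these data known. At E15.5 against E14.5, 17 of 29 measured genes of collagen folding, modification and crosslinking were higher and none lower. Colgalt2, a galactosyltransferase of collagen lysines, rose by 3.50, Plod1, a lysyl hydroxylase, by 3.06, P3h1, a prolyl 3-hydroxylase, by 3.04, and Pcolce, an enhancer of C-propeptide cleavage, by 2.68. Among degradation genes 5 of 11 rose, with the cathepsin gene Ctsk at 3.86, the inhibitor Timp2 at 2.12, and the matrix metalloproteinases Mmp14 and Mmp2 at 2.08 and 1.92. Of the 8 collagen receptors, the integrin chain Itga11 rose by 2.26 and the discoidin receptor Ddr2 by 1.93.

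**Figure D2:**
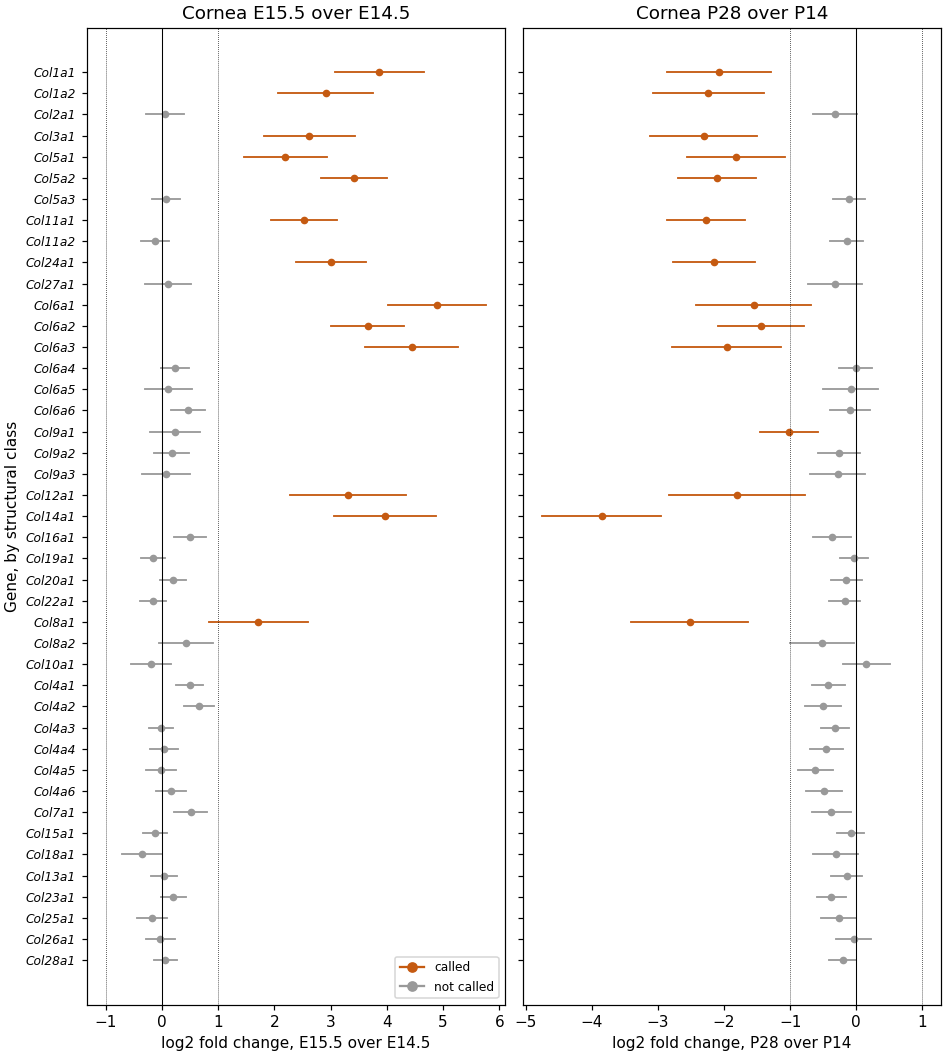
Differences of the 43 collagen genes between neighbouring cornea ages, E15.5 over E14.5 (left) and P28 over P14 (right). Points are log2 fold changes from limma with 95% intervals (x axis), genes run down the page by structural class, and the dotted lines mark 2-fold. The called genes (orange) lie between 1.71 and 4.89 on the left and between -3.85 and -1.02 on the right, and no gene was called in the opposite direction.

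The 4 steps between E15.5 and P14 held no called collagen gene. At E17.5 against E15.5, 0.261% of all genes were higher and 0.0451% lower, at P3 against E17.5 0.451% and 0.978%, at P7 against P3 0.868% and 0.557%, and at P14 against P7 0.01% and 0.00502%. As deposited, without quantile normalization, the first 2 of these steps had 30 genes higher and 13 lower in place of 52 and 9, and 129 and 151 in place of 90 and 195, with no collagen gene called. At an adjusted p under 0.05 with no fold limit, limma gave 0, 1, 4 and 0 collagen genes in these steps, beside 0.527%, 9.44%, 7.21% and 0.0251% of all genes. The 4 of 43 at P7 against P3 are near that background, and 3 of them were type IV chains. Col4a3 was at 8.25, 8.39 and 8.36 at P7 and at 7.62, 7.72 and 7.75 at P3 (log2 0.64, SE 0.10, adjusted p = 0.000725). Col4a6 and Col4a5 differed by 0.58 (adjusted p = 0.00899) and 0.52 (adjusted p = 0.0158), and the membrane collagen Col23a1 by -0.46 (adjusted p = 0.0103). The arrays of the 2 ages did not overlap for any of these 4 genes. They did not overlap for 11 of the 43 collagen genes in either direction, beside 27% of all genes. Of the 5 corneal epithelium markers, 3 were called higher at P7 in the same step, and the list summed to 33096 to 42722 at P7 and to 14305 to 15247 at P3. The corneal endothelium list had 2 of 4 genes higher (Slc4a11 and Atp1b1), the retina and pigment epithelium list 4 of 5 lower and the smooth muscle list 2 of 5 lower. The part of these lists in the type IV differences was not tested.

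Between P14 and P28, 14 collagen genes fell and none rose, against 2.84% of all genes called lower and 1.63% called higher. Without quantile normalization the split over all genes moved from 324 higher and 567 lower to 539 higher and 531 lower, and 13 collagen genes were lower and none higher. The median difference was -0.38 over the 43 genes and -0.04 over all genes, and only 1 of the 43 collagen genes, Col10a1, had a higher mean at P28. Again 7 of 11 fibrillar and 3 of 6 beaded filament genes were called, with 3 of 9 fibril-associated and 1 of 3 short-chain genes.

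Col14a1 had the largest difference of this step. It was at 8.00, 7.00 and 6.64 at P28 and at 11.47, 10.71 and 11.01 at P14, a 14.4-fold difference (log2 -3.85, SE 0.44, adjusted p = 1.91e-06). Col8a1 fell by 2.52 (SE 0.42, adjusted p = 0.000241), with arrays at 9.16, 8.59 and 8.74, against 11.24, 11.91 and 10.90. Col3a1 fell by 2.31 (SE 0.39, adjusted p = 0.000241), Col11a1 by 2.27, Col1a2 by 2.24, Col24a1 by 2.15, Col5a2 by 2.11 and Col1a1 by 2.08. Col5a1 fell by 1.81. The type VI chains Col6a3, Col6a1 and Col6a2 fell by 1.96, 1.55 and 1.44, and the fibril-associated Col12a1 and Col9a1 by 1.80 and 1.02. The P28 arrays lay below the P14 arrays for all 14 genes, and 22 of the 43 did not overlap in either direction, beside 33% of all genes. All 6 type IV genes and Col23a1 passed the adjusted p with differences under 2-fold, from -0.62 for Col4a5 to -0.32 for Col4a3. With them 21 of the 43 passed the adjusted p, beside 13.7% of all genes.

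Markers of the stromal cells were read in the same step. At P28 against P14, 1 of 5 corneal stroma markers (Ogn) and 1 of 7 fibroblast markers (Twist2) were lower. The stroma list summed to 14567 to 17897 at P28 and to 19233 to 32230 at P14, and the fibroblast list to 13504 to 16070 at P28 and 15688 to 28737 at P14. Kera was at 4482, 6047 and 5204 at P28 and at 9841, 5709 and 7582 at P14, so the 2 ages overlapped. Epithelial markers summed to 64612 to 74811 at P28 and to 38018 to 45006 at P14. The corneal endothelium list had 2 of 4 genes lower (Cdh2 and Atp1b1), with sums of 781 to 1403 at P28 and 1750 to 3365 at P14. Lens markers stood apart on replicate 2 of both ages, at 21736 against 5436 and 5187 at P28 and at 47605 against 3371 and 6127 at P14. The part of these lists in the collagen differences, that of Col8a1 included, was not tested.

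Of the processing genes, 9 of 29 were lower at P28, 1 was higher and 19 were not called. P3h1 fell by 2.77, P4ha3, a prolyl 4-hydroxylase subunit, by 2.64, and Lox, which crosslinks collagen, by 2.48, while Pcolce2 rose by 2.10. Of the degradation genes 4 of 11 fell, Mmp16 by 2.77, Ctsk by 2.20, Mmp2 by 1.52 and Timp2 by 1.50. Itga11 fell by 1.22 and was the 1 receptor of 8 that was called.

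P28 was also set against the 2 earliest ages, using the same arrays as above. Against E15.5, 15 collagen genes were lower and none higher, beside 5.4% of all genes lower and 4.9% higher. Col14a1 differed by -5.42, or 42.7-fold, and Col3a1 by -3.70, and the basement membrane genes Col4a1 and Col4a2, which no single step called, differed by -1.10 and -1.06. Against E14.5, 4 genes were higher and 2 lower, beside 8.4% and 5.54% of all genes, so the counts are near those shares. The 3 type VI chains were higher at P28, Col6a1 by 2.44, Col6a3 by 1.69 and Col6a2 by 1.30, with no overlap between the ages. The arrays did not overlap for 18 of the 43 collagen genes in either direction, beside 53.2% of all genes. Col1a1 at 1.03, Col3a1 at -1.08 and Col14a1 at -1.44 were called with overlapping arrays, and 3 of the 6 calls held without P28 replicate 3. Without E14.5 replicate 3, Col6a1 differed by 1.61, Col6a2 by 1.03, Col3a1 by -1.85 and Col14a1 by -2.18, and 2 genes lost their call, Col6a3 at 0.93 (adjusted p = 0.00909, under 2-fold) and Col1a1 at 0.52 (adjusted p = 0.256). The other 37 genes differed by -0.92 to 0.96.

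Chains that assemble into one molecule ran in parallel over the 9 Gene ST group means, of which 7 are cornea ages. As a description over these 9 points, Pearson's r was 0.99 for Col4a1 and Col4a2, 0.98 for Col6a1 and Col6a2, 0.96 for Col6a1 and Col6a3, 0.97 for Col5a1 and Col5a2, 0.95 for Col1a1 and Col1a2 and 0.95 for Col4a5 and Col4a6, beside a median of 0.43 over all 903 pairs of collagen genes. It was lower for Col4a3 and Col4a4 at 0.81, Col8a1 and Col8a2 at 0.70, and Col11a1 and Col11a2 at 0.53. Col4a1 and Col4a2 have the overlapping start windows printed above, and Col4a5 and Col4a6 are also head-to-head neighbours, on the X chromosome, with a gap between their windows.

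**Figure D3:**
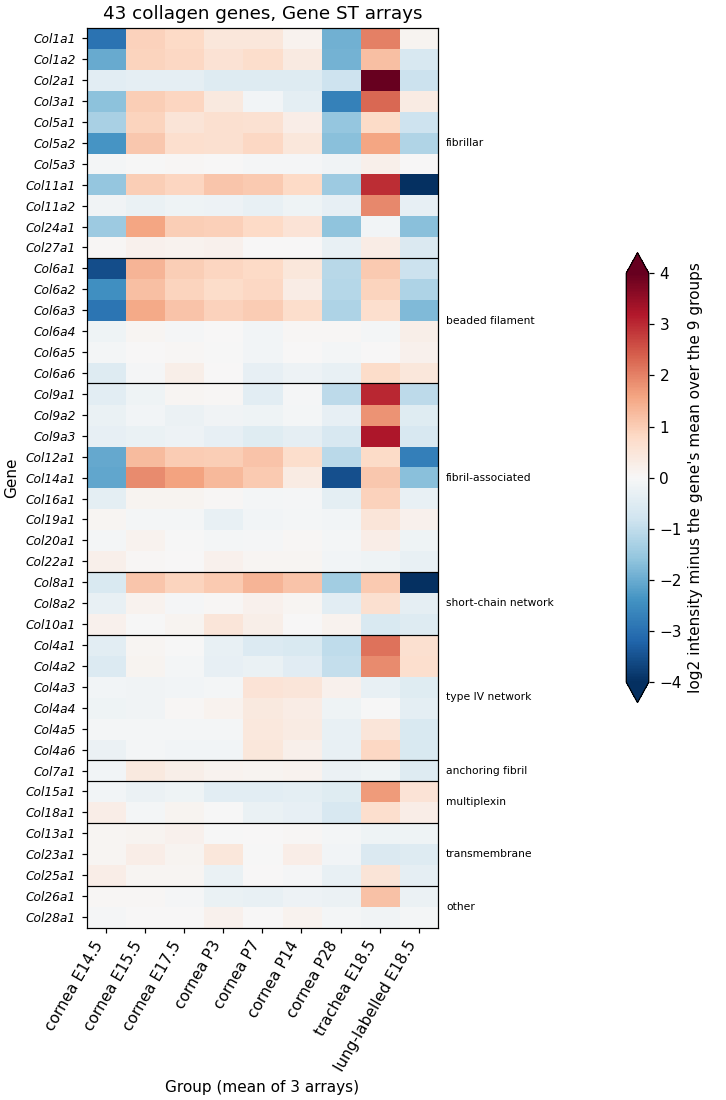
Mean levels of the 43 collagen genes in the 9 Gene ST groups, each gene relative to its own mean over the groups. Rows are genes by structural class, columns are groups of 3 arrays, and colour is the log2 difference (scale from -4 to 4, values beyond it take the end colours). Col1a1, Col1a2, Col5a2, Col6a1 to Col6a3, Col12a1 and Col14a1 are blue at E14.5 and P28 and red between, and Col2a1, Col9a1, Col9a3 and Col11a1 are darkest red in trachea.

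In E18.5 trachea the chains of cartilage stood out. Against the lung-labelled arrays, 25 of the 43 collagen genes were higher and none lower, beside 10.8% of all genes higher and 5.26% lower. The median difference was 1.24 over the collagen genes and -0.06 over all genes. Since the lung-labelled arrays carried thymus markers and few fibroblast markers (sums of 3569 to 4925, against 21636 to 22970 in trachea), the comparison describes trachea against those arrays and not against lung.

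Col2a1, the main chain of cartilage fibrils, was at 13.92, 13.97 and 13.94 in trachea and at 8.64, 8.87 and 8.68 on the lung-labelled arrays, a 37.0-fold difference (log2 5.21, SE 0.16, adjusted p = 9.36e-18). Col11a1, its partner in the fibril, was at 13.16, 13.19 and 13.16, against 4.82, 6.16 and 5.56, the largest difference at 7.66 (SE 0.28, adjusted p = 4.3e-16). The fibril-associated type IX chains Col9a1, Col9a3 and Col9a2 were higher by 4.06, 3.90 and 2.27, and Col11a2 by 2.25. Col8a1 was higher by 5.65 and Col12a1 by 3.48. The remaining called genes, from Col5a2 at 2.79 to Col4a5 at 1.10, included the interstitial chains Col3a1 at 1.97, Col1a1 at 1.91 and Col1a2 at 1.86, and 4 of the 6 type IV chains. The trachea arrays almost coincided for Col2a1 and Col11a1 and lay far above every lung-labelled array.

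Cornea at E17.5 gave a second comparison on the same arrays, at the nearest embryonic age. In trachea 12 collagen genes were higher and 1 lower, beside 9.56% of all genes higher and 8.24% lower. Without quantile normalization the median of all genes moved from -0.09 to -0.34, the whole table had 2203 genes higher and 3029 lower in place of 1906 and 1643, and the collagen genes 13 higher and 2 lower. Relative to cornea, trachea had Col2a1 higher by 4.73 (SE 0.16, adjusted p = 2.14e-16), Col9a3 by 3.45, Col9a1 by 2.93, Col11a1 by 2.09, Col11a2 by 2.08 and Col9a2 by 2.02, the 6 chains of types II, IX and XI. Col2a1 was at 13.92, 13.97 and 13.94 in trachea and at 8.93, 9.65 and 9.05 in cornea, so no arrays overlapped. The basement membrane pair Col4a1 and Col4a2 was higher by 2.18 and 1.95, Col15a1, a collagen of vascular and muscle basement membranes, by 1.89, Col3a1 by 1.42, and Col26a1 and Col1a1 by 1.23 each. Col24a1 was lower, by 1.08, at 8.71, 8.80 and 8.47 in trachea and 9.82, 10.11 and 9.28 in cornea. The stromal chains Col1a2, Col5a1, Col5a2, Col12a1, Col14a1 and Col8a1 were not called in either direction, and the 30 genes not called ranged from -0.71 to 0.96.

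**Figure D4:**
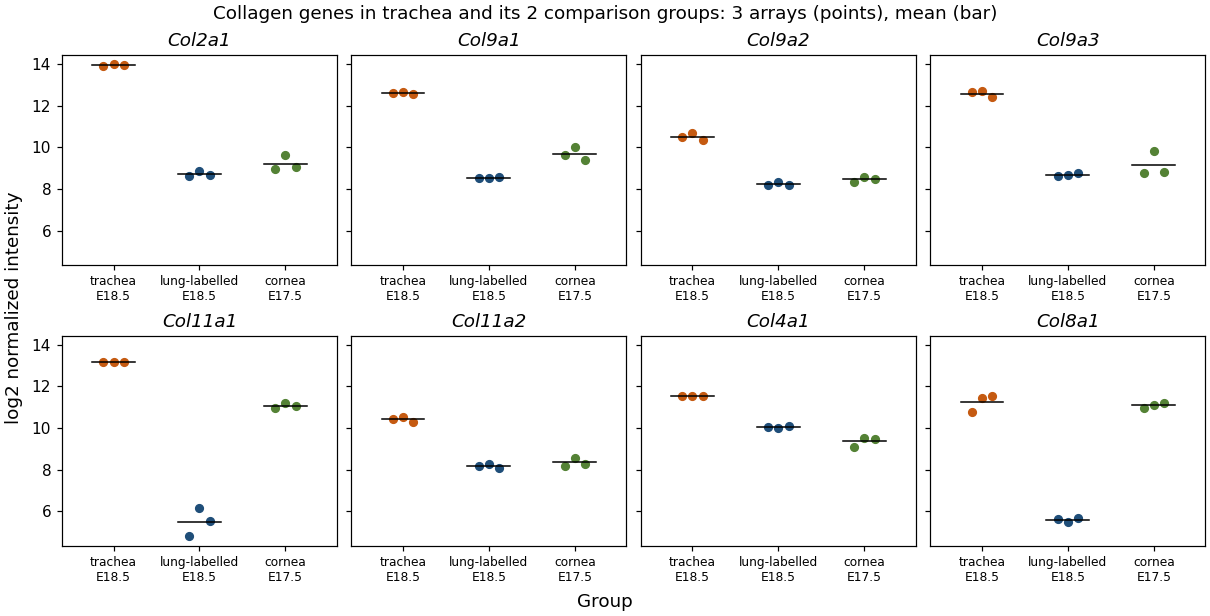
Levels of 8 collagen genes on the arrays of E18.5 trachea, the lung-labelled E18.5 arrays and E17.5 cornea. Points are arrays and bars are means of 3 (log2 normalized intensity, y axis). For Col2a1 the trachea arrays lie between 13.92 and 13.97, the lung-labelled arrays between 8.64 and 8.87 and the cornea arrays between 8.93 and 9.65, whereas Col8a1 is high in trachea and cornea and at 5.50 to 5.67 on the lung-labelled arrays.

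Other cell types differed between these samples as well. All 10 cartilage markers were called higher in trachea than on the lung-labelled arrays and 8 of 10 higher than in cornea, with sums of 56322 to 61429 in trachea, 1748 to 1781 on the lung-labelled arrays and 3096 to 4494 in E17.5 cornea. Skeletal muscle markers summed to 50699 to 71340 in trachea and to 29339, 3550 and 26713 on the E17.5 cornea arrays, and 4 of 5 smooth muscle markers were higher in trachea in both comparisons. Their part in the collagen differences was not tested.

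Of the processing genes, 23 of 29 were higher in trachea than on the lung-labelled arrays and none lower, with Crtap, part of the prolyl 3-hydroxylation complex, at 4.23, Lox at 3.96, the telopeptide lysyl hydroxylase Plod2 at 3.39 and Loxl1 at 3.15. Of the degradation genes 8 of 11 were higher (Mmp16 4.09, Mmp2 2.97, and the collagen uptake receptor Mrc2 2.57) and Mmp9 was lower at -2.76. The receptors Ddr2, Itga11 and Itga1 were higher by 2.81, 1.68 and 1.11. Against cornea, 9 of 29 processing genes were higher, led by Plod2 at 2.45, Loxl3 at 1.57, P4hb at 1.51 and P3h4 at 1.47, and Pcolce was lower at -1.03. Ctsk, lower in trachea by 2.72, stood at 8.98 ± 0.75 there and at 11.70 ± 0.15 in cornea. Timp3 and Mrc2 were higher by 1.36 and 1.25, and of the receptors Itga1 was higher by 1.76 and Itga11 lower by 1.28.

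On the older arrays, 9 of the 41 collagen genes stayed below the table's median in every group, among them Col2a1, Col11a2 and Col9a2, against 30.5% of all genes. Comparisons were read first within each of the 2 array sets, and 4 of these, between tissues, were added after the control probe sets had been seen.

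Within the larger set, E14.5 skin differed from E14.5 bladder in 11 collagen genes, 5 higher and 6 lower, beside 8.11% of all genes higher and 6% lower. Without quantile normalization all genes split into 1235 higher and 1388 lower in place of 1476 and 1092, and the collagen genes into 4 and 5. Col7a1, which anchors epidermis to dermis, was at 7.51, 6.72 and 7.07 in skin and at 4.68 and 4.78 in bladder (n = 2), a difference of 2.37 (SE 0.33, adjusted p = 1.82e-05 by limma). Col5a3 was higher in skin by 1.95, Col24a1 by 1.62, Col26a1, a secreted collagen, by 1.30 and Col20a1 by 1.19. The transmembrane collagens Col25a1 and Col13a1, known from the neuromuscular junction and motor innervation, were lower by 2.90 (SE 0.31, adjusted p = 7.4e-07) and 2.85 (SE 0.31, adjusted p = 7.96e-07). Col25a1 was at 8.16, 8.13 and 8.65 in skin and at 11.16 and 11.27 in bladder. Col8a2 was lower by 1.77, Col11a1 by 1.33, Col4a3 by 1.18 and Col14a1 by 1.08. Of the called genes, Col20a1 and Col4a3 stayed below the table's median in every group. Of 7 called genes with a further probe set, only 3 had the same direction there, so the direction of the others depended on the probe set. The 7 genes were Col5a3, Col26a1, Col20a1, Col25a1, Col11a1, Col4a3 and Col14a1. Col7a1, Col24a1, Col13a1 and Col8a2 had 1 probe set each, so their direction could not be checked in this way. The values above are those of the brightest probe set alone. Without bladder E14.5 replicate 2 the count of called genes was 7. Of the smooth muscle markers 4 of 5 were lower in skin, and 4 of 5 epidermal and 5 of 6 skeletal muscle markers were higher, and their part was not tested.

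E18.5 Get1 +/- bladder had several collagen genes higher than esophagus or stomach of the same age. Against esophagus, 9 collagen genes were higher and none lower, beside 6.37% and 4.85% of all genes. As deposited, without quantile normalization, all genes split into 864 higher and 1094 lower in place of 1159 and 882, and 6 collagen genes were higher. Col8a2, the second chain of type VIII collagen, was at 9.20, 9.71 and 9.28 in bladder and at 7.88, 7.09 and 6.77 in esophagus (log2 2.15, SE 0.38, adjusted p = 0.000242). Col26a1 was at 7.52, 7.62 and 8.75, against 6.07, 5.74 and 5.88 (log2 2.07, SE 0.25, adjusted p = 3.69e-06). Col9a3, Col4a4, Col9a2, Col15a1, Col16a1, Col14a1 and Col2a1 were higher by 1.05 to 1.43, and Col9a2 and Col2a1 are among the dim genes. The 4 of these genes with a further probe set kept their direction there. The count of called genes was 7 without Get1 +/- bladder replicate 3 or without esophagus replicate 4. That bladder array had a Gapdh 5′ to 3′ ratio of 7.48%, against 43.7% and 45.6% on the others of its group, and the part of this was not tested.

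Against stomach, 11 collagen genes were higher in bladder and 1 lower, beside 4.79% and 5.03% of all genes, and the median difference was 0.71 over the collagen genes and 0.07 over all genes. Col26a1 was higher by 2.19, Col14a1 by 1.61, Col5a3 by 1.59, Col16a1 by 1.45, Col1a2 by 1.42, Col8a2 by 1.36, Col4a1 by 1.29, Col25a1 by 1.26, Col9a3 by 1.10, Col4a2 by 1.08 and Col6a1 by 1.04. Col1a2 was at 12.44, 12.64 and 12.61 in bladder and at 11.08, 11.15 and 11.19 in stomach. The lower gene was Col6a4, at 4.40, 5.21 and 5.67 in bladder and at 7.86, 7.50 and 7.71 in stomach (log2 -2.60, SE 0.33, adjusted p = 6.39e-06). Smooth muscle markers summed to 23633 to 28867 in bladder, 9447 to 10063 in stomach and 9737 to 11889 in esophagus, with 4 of 5 called higher in bladder in both comparisons, skeletal muscle markers were higher than in stomach for 6 of 6 genes, and their part was not tested. Of the 8 called genes with a further probe set, 5 kept their direction there, and Col25a1, Col5a3 and Col6a4 did not. The count of called genes was 9 without Get1 +/- bladder replicate 3 and 15 without replicate 1. Of the processing genes 9 of 28 were higher than in stomach and none lower, led by P3h1 at 1.50, P3h4 at 1.45, Loxl1 at 1.34 and Plod1 at 1.25, and 6 of 28 were higher than in esophagus.

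Stomach and esophagus differed from each other in 2 collagen genes. Col6a4, one of the alternative type VI chains, was higher in stomach by 2.80 (SE 0.33, adjusted p = 3.43e-06), with esophagus at 5.03, 4.39 and 5.25. Col25a1 was lower in stomach by 1.52 (SE 0.28, adjusted p = 0.000609), at 8.92, 8.67 and 8.87 in stomach and 10.66, 10.37 and 9.99 in esophagus. On a further probe set Col6a4 kept its direction at 0.12 and Col25a1 did not, at 0.62. Over all genes 4.25% were called higher and 2.8% lower, and without quantile normalization 575 genes were higher and 634 lower in place of 773 and 510, with the same count of collagen genes.

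Bladder was compared over age as well. At E16.5 against E14.5 none was called, beside 0.269% of all genes higher and 0.0715% lower, and the collagen genes ranged from -0.39 to 1.70. The arrays did not overlap for 15 of 41 collagen genes, beside 31.4% of all genes. Col5a3 was at 6.35, 6.42 and 6.44 at E16.5 and at 4.84 and 4.55 at E14.5, without overlap. At E18.5 in Get1 +/- bladder against E16.5, Col8a1 was higher by 1.28 and Col6a4 by 1.09, and Col9a1 was lower by 1.16 and Col25a1 by 1.08, beside 3.99% and 2.15% of all genes. All 4 have a further probe set, and 3 of the 4 kept their direction there. The arrays did not overlap for 19 of 41, beside 34.5% of all genes. These 4 calls depended on single arrays: the count was 1 without Get1 +/- bladder replicate 3, 2 without replicate 2 or without E16.5 bladder replicate 3, and 7 without Get1 +/- bladder replicate 1. Replicate 3 of this group stood apart in RNA quality, with a Gapdh 5′ to 3′ ratio of 7.48%, against 43.7% and 45.6%, and an actin ratio of 11.1%, against 25.4% and 28.4%, and the part of this was not tested.

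Within the smaller set, E18.5 skin and E18.5 small intestine differed in 13 collagen genes, 11 higher and 2 lower in skin, beside 8.99% of all genes higher and 10.2% lower. Without quantile normalization 7 collagen genes were higher and 3 lower, and all genes split into 1405 higher and 2296 lower in place of 1636 and 1864. The gene with the largest difference was Col6a4, at 4.14, 4.03 and 4.05 in skin, near the floor of 4, and at 10.65, 10.84 and 9.32 in small intestine (log2 -6.20, SE 0.33, adjusted p = 4.48e-12). Col26a1 was at 8.50, 8.61 and 8.35 in skin and at 4.87, 4.90 and 5.20 in small intestine (log2 3.50, SE 0.25, adjusted p = 4.86e-10). Col7a1 was at 10.92, 10.43 and 10.27, against 6.57, 7.40 and 8.04 (log2 3.20, SE 0.30, adjusted p = 2.88e-08), and Col5a3 at 10.24, 9.75 and 9.37, against 5.72, 6.63 and 8.20 (log2 2.94, SE 0.44, adjusted p = 1.92e-05). In both genes the highest small intestine array was replicate 4, which carried epidermal, stratified esophagus and stomach markers.

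Further genes higher in skin were Col12a1 by 2.58, the transmembrane Col23a1 by 1.82, Col5a2 by 1.46, Col6a3 by 1.25, Col9a3 by 1.15, Col16a1 by 1.03, and Col5a1 and Col11a2 by 1.01 each, with overlapping arrays for Col16a1 and Col5a1. Col11a2 is among the dim genes. Col8a2 was lower by 1.22. Without small intestine replicate 4, 15 genes were higher and 2 lower, 12 of them among the 13. Col7a1 then differed by 3.55, Col5a3 by 3.61 and Col6a4 by -6.67, and Col8a2, at -0.54 with an adjusted p of 0.104, was no longer called. The 8 called genes with a further probe set kept their direction there. Fibroblast markers were called higher in skin for 5 of 7 genes and smooth muscle markers lower for 4 of 5, and skin replicate 2 had a fibroblast sum of 14258, against 38999 and 43594 on the other skin arrays. Skeletal muscle markers summed to 25125 to 36039 in skin and 198 to 711 in small intestine, and endothelial markers to 1664 to 2214 and 9619 to 12242. Lung markers summed to 196, 29349 and 25455 on skin replicates 1, 2 and 3 and to 7724, 8890 and 1058 in small intestine. The part of these lists was not tested. Of the processing genes 10 of 28 were higher in skin and none lower, led by Loxl1 at 2.45, Pcolce at 2.35, P4ha2 at 1.99 and P4ha1 at 1.54. Ctsk and Mrc2 were higher by 2.88 and 1.99, and Mmp9 and Mmp13 lower by 1.75 and 1.05.

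In skin, E18.5 against E16.5 gave 2 called genes, both higher, beside 2.44% of all genes higher and 2% lower. Without quantile normalization 334 genes were higher and 660 lower in place of 444 and 364. Col27a1, a fibrillar chain, was at 9.53, 9.21 and 8.79 at E18.5 and at 7.99, 7.68 and 7.94 at E16.5 (log2 1.31, SE 0.27, adjusted p = 0.00242), and on its other probe set it went the other way at -0.55. Col23a1 was higher by 1.04 (SE 0.26, adjusted p = 0.00961). Only 1 of the 2 was called without E16.5 skin replicate 6 or without E18.5 skin replicate 2. Lung markers were present on E18.5 skin replicates 2 and 3 at sums of 29349 and 25455, against 196 on replicate 1. They were also present on E16.5 skin replicate 7 at 9024, against 332 and 522 on replicates 6 and 8, and their part was not tested.

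**Figure D5:**
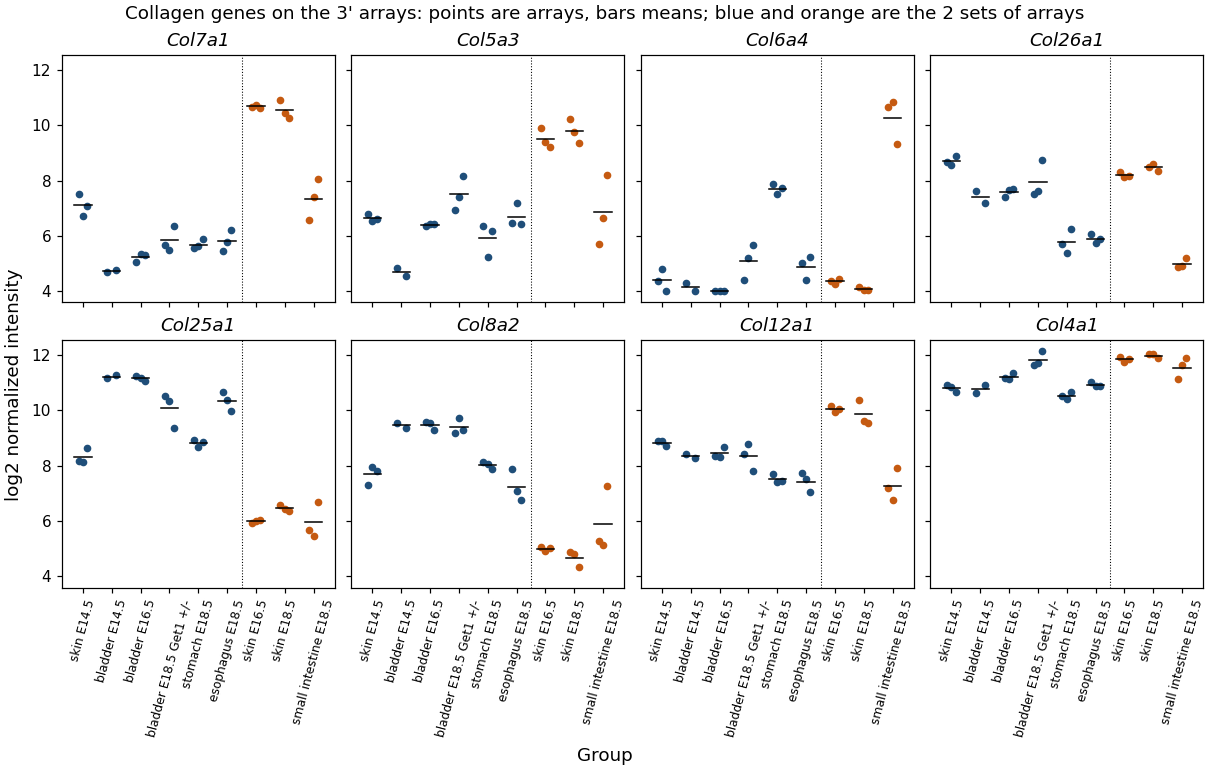
Levels of 8 collagen genes on the older arrays, with the 17 arrays of the larger set in blue and the 9 of the smaller set in orange, separated by the dotted line. Points are arrays and bars are group means (log2 normalized intensity, y axis). Col6a4 is at 9.32 to 10.84 in small intestine and at 4.03 to 4.14 in E18.5 skin, and Col7a1 is at 10.27 to 10.92 in E18.5 skin, across the dotted line from E14.5 skin at 6.72 to 7.51.

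Comparisons across the 2 sets gave larger counts, in all genes as in collagen genes, and are given as values only. At E16.5 against E14.5 in skin, 10 collagen genes were higher and 14 lower, beside 18.2% of all genes higher and 25% lower. Col7a1 differed by 3.58, Col5a3 by 2.87, Col16a1 by 2.47 and Col5a1 by 2.45, and Col9a3 by -3.10, Col8a2 by -2.69, Col25a1 by -2.33 and Col24a1 by -2.11. Of the 14 called genes with a further probe set, 8 kept their direction there, and Col1a1 was at -1.74 on its brightest probe set and 0.84 on the other. Over the 5 E18.5 tissues the F test called 37 of 41 collagen genes, beside 71.1% of all genes. Higher than in each of the other 4 tissues were 8 collagen genes in skin (Col5a1, Col5a3, Col6a3, Col7a1, Col11a2, Col12a1, Col16a1 and Col23a1), 2 in bladder (Col8a2 and Col9a3), Col6a4 in small intestine and none in esophagus or stomach. The shares over all genes were 4.11% for skin, 1.63% for bladder, 4.05% for small intestine, 1.29% for esophagus and 1.04% for stomach. Of the genes named for skin, Col11a2 is among the dim genes. The parallel courses of partner chains were partly absent over these 9 groups, with r at 0.89 for Col4a1 and Col4a2 and 0.93 for Col6a1 and Col6a2, but -0.29 for Col1a1 and Col1a2 and 0.21 for Col5a1 and Col5a2, beside a median of 0.05 over 820 pairs.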

How the data were processed

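Total RNA of 53 mouse tissue samples was measured on 27 Affymetrix Gene ST arrays and 26 older 3′ arrays. The deposited values are linear intensities per probe set, which the authors obtained by PLIER 2.0 summarisation (the submitters' processing notes also name Affymetrix Expression Console 1.1.1), with settings that no source used here gives. For this report log2 values were computed from the deposited intensities with 16 added, and were quantile-normalized within each array type. The median of an array's log2 values before that step was 7.60 to 8.17 on Gene ST and 5.35 to 6.03 on the older arrays, and the number of arrays limits the precision.

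Of 35556 Gene ST probe sets 21789 carried 1 gene symbol, 1621 several and 12146 none, and of 45101 older probe sets 34958, 932 and 9211. Symbols were updated to RefSeq GRCm38.p6, where 99.58% and 99.42% matched. Each gene was represented by its probe set of highest mean. Groups came from the labels. One limma 3.58.1 model (R 4.3.3, lmFit and eBayes) covered all groups of an array type, with Benjamini-Hochberg adjustment over all genes, and the procedure was tested on simulated data. Called genes had an adjusted p under 0.05 and at least a 2-fold difference.

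The collagen genes, marker lists and lists of processing, degradation and receptor genes were chosen with earlier results of these data known. Every called collagen gene could be named, and up to 4 called genes with the largest change from each other list. Samples with equal replicate numbers were checked for shared deviations from their group means: only for P28 against P14 in cornea did every pair exceed 0.1, with correlations of 0.242, 0.133 and 0.134. The alternatives tried were another pseudocount, no quantile normalization, the mean of all probe sets, no fold limit, a filter on dim genes, a trended robust variance, fits on fewer groups, a replicate block within those fits, the mean of E14.5 skin replicates 1 and 2, and leaving out single arrays or the lung-labelled arrays. After the control probe sets were seen, fits of the 21 cornea arrays or of 1 array set alone, and 4 comparisons between tissues, were added.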

Additional observations from a re-analysis of the deposited data

Results flagged for a closer look

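For 17 of the 41 collagen genes on the older arrays, the change between E14.5 and E16.5 differed between skin and bladder by the interaction term of the limma fit at a difference of at least 2-fold, beside 16.9% of all genes with a positive and 25.2% with a negative term. The collagen count is near these shares in both directions, so it does not set the collagen genes apart from other genes. The values below are the log2 change in skin minus that in bladder. The 2 skin ages lie in different array sets and the 2 bladder ages in the same one, so that tissue-specific change and array set cannot be told apart here.

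Among basement membrane, anchoring and cell-surface collagens, the difference was 3.07 for Col7a1, 1.51 for Col23a1, -2.28 for Col25a1 and -1.79 for Col4a4. Among the fibrillar and beaded filament chains it was 2.23 for Col5a1, 1.49 for Col6a3, 1.29 for Col11a2, -1.55 for Col1a1, -1.57 for Col2a1 and -2.46 for Col24a1. Among the fibril-associated chains it was 2.21 for Col16a1, 1.13 for Col12a1, -1.97 for Col22a1, -1.65 for Col9a1 and -3.73 for Col9a3. The short-chain genes Col8a1 and Col8a2 had -1.76 and -2.71. Col2a1, Col11a2 and Col22a1 are dim genes on this array type. The terms of Col8a1 and Col9a1 changed sign when all probe sets of the gene were averaged.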

How the results depend on the processing

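Values of called collagen genes under an alternative numbered 4156, of which 244, with no fold limit, kept the call by construction. Of the 4156, 3934 kept their direction and call, 218 kept the direction without the call, and 4 changed sign, all with the mean of all probe sets. These 4 were Col4a6 at 0.185 and Col8a1 at 0.232 for E16.5 against E14.5 in skin, and Col8a1 at 0.135 and Col9a1 at 0.06 in the interaction of tissue and age. With that mean, called genes numbered 6 for E14.5 skin against bladder, 0 for Get1 +/- bladder against E16.5 bladder, 0 for E18.5 against E16.5 skin, and 1 for bladder above the other E18.5 tissues. Counts with no fold limit are given with the share of all genes under the same rule in brackets. In cornea they were 15 for P28 against E14.5 (43%), 23 for P28 against E15.5 (28.2%), 1 for P3 against E17.5 (9.44%) and 4 for P7 against P3 (7.21%). Trachea against cornea gave 27 (55.8%). Get1 +/- bladder gave 9 against E16.5 bladder (15.1%), 15 against esophagus (28.3%) and 20 against stomach (23.5%). E18.5 skin gave 4 against E16.5 skin (12.7%) and 22 against small intestine (37.1%). Stomach against esophagus gave 8 (14.4%). Without a share at hand, the counts were 27 over the 7 cornea ages and 1 for esophagus above the other tissues. Without quantile normalization they were 2 for Get1 +/- against E16.5 bladder, 1 for E18.5 against E16.5 skin and 5 for skin above the other tissues, and with a pseudocount of 1 bladder had 1. P28 against E14.5 gave 2 when only those groups were fitted and 3 with the replicate block added to that fit. For E15.5 against E14.5 the fit of only those groups gave 12, and 10 with the replicate block. For P28 against P14, where arrays of equal number shared weak deviations but no label pairs them, both gave the same 14 genes. Leaving out each array in turn gave 12 to 13 for E15.5 against E14.5, 12 to 14 for P28 against P14, 3 to 6 for P28 against E14.5, 25 to 26 for trachea against the lung-labelled arrays, 13 for trachea against cornea, 1 to 7 for Get1 +/- against E16.5 bladder, 7 to 12 for E14.5 skin against bladder, 1 to 3 for E18.5 against E16.5 skin, 11 to 17 for skin against small intestine, and 5 to 8 in skin and 1 to 3 in bladder above the other tissues. For Get1 +/- bladder, leaving out each array gave 7 to 9 against esophagus and 9 to 15 against stomach. The cause of these changes was not tested. Skin gave 5 without small intestine replicate 3, and bladder gave 1 without Get1 +/- bladder replicate 2 or 3 or stomach replicate 1 or 2. Fitted alone, the 21 cornea arrays gave 13 for both E15.5 against E14.5 and P28 against P14. Genes below the table median in every group, 9 of 41 on the older arrays and 1 of 43 on Gene ST, limit what could be seen. A single bright group takes a gene out of this count, so it does not give the number of genes near background in any group.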

Other observations

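Col6a5, an alternative type VI chain that is dim on the older arrays, had a low array in both foregut tissues. It was at 7.39, 7.76 and 4.61 in stomach and at 7.59, 7.24 and 4.00 in esophagus, and in each tissue the low array was replicate 4. Those 2 arrays also had the lowest 5′ to 3′ ratios of their groups, with a Gapdh ratio of 12.3% in stomach and 19.0% in esophagus, against 32.6% to 38.8% on the other arrays, and an actin ratio of 7.87% in stomach, against 18.3% and 14.96%, and 11.1% in esophagus, against 19.5% and 18.3%, and the part of this was not tested. In small intestine it was at 5.66, 5.85 and 7.10, with replicate 4 the highest. No call rested on these values.

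In bladder, Col6a4 was at 4.31 and 4.00 at E14.5, at 4.00 on all 3 arrays at E16.5, and at 4.40, 5.21 and 5.67 in the Get1 +/- bladders of E18.5, so its signal there was at or near the floor of 4 at the earlier ages.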
